A study of Danio rerio with 16 samples.

Results

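Primordial germ cells (PGCs) of zebrafish embryos were compared between 4 hours post fertilisation (hpf, blastula) and 7 hpf (gastrula) by whole-genome bisulfite sequencing (WGBS), which reads unmethylated cytosines as thymine. The comparison held 4 of the 16 libraries of the study, replicates 1 and 2 of PGC_4hpf and of PGC_7hpf, and was made within each replicate's table. Its members were the 10260021 nuclear CpGs listed in both tables, of 18451728 listed in either. All embryos carried the kop-egfp-f-nanos3′UTR transgene, whose green fluorescence marks PGCs for cell sorting (the study's methods add a cry-DsRed marker to the line), so that a library holds the cells passing that gate. Somatic cells sorted from embryos of the same age (Soma_4hpf and Soma_7hpf, 4 libraries) carried the same transgene and are given beside the PGCs. The study's methods call the 4 hpf replicates technical and those of 7 hpf biological, so the spread at 4 hpf may leave out variation between collections of embryos. Methylation calls hold no marker levels, and the sorted cell type was not checked beyond its label.

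In vertebrate genomes most CpGs carry 5-methylcytosine (5mC), placed by DNA methyltransferases and copied to the new strand after replication by the maintenance enzyme Dnmt1. CpG-dense islands at promoters usually stay free of it, and intermediate levels are typical of regulatory elements and of cells in mixed states. Zebrafish PGCs are set apart by maternally supplied germ plasm, begin to migrate during gastrulation, and cross between these stages from the onset of zygotic transcription into the gastrula. In mammals the genome of PGCs is largely demethylated during their migration, which is the background against which early steps of the fish germline are measured.

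The methylome of PGCs moved very little from 4 to 7 hpf. The level, taken as the mean of the methylated fractions of all 10260021 CpGs, was 87.50% in replicate 1 and 87.45% in replicate 2 at 4 hpf. At 7 hpf it was 87.42% and 87.30%. Both 7 hpf libraries lay below both 4 hpf libraries, and the change was -0.078 percentage points in replicate 1 and -0.15 points in replicate 2 (mean -0.114 ± 0.0506, SD, n = 2). This SD depends on matching libraries by replicate number, which the labels do not say are pairs. A comparison of 2 libraries against 2 cannot give an exact permutation p under 0.33, the two-sided value found here, so no difference of levels can pass a threshold of 0.05 by this test. The following step was larger: from 7 to 24 hpf the PGC level changed by -2.12 points in replicate 1 and by -2.07 points in replicate 2. Over the same 3 hours of development soma changed by -0.156 and -0.371 points. The PGC step minus the soma step was 0.0776 and 0.221 points (exact two-sided permutation p = 0.33, the smallest possible).

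**Figure D1:**
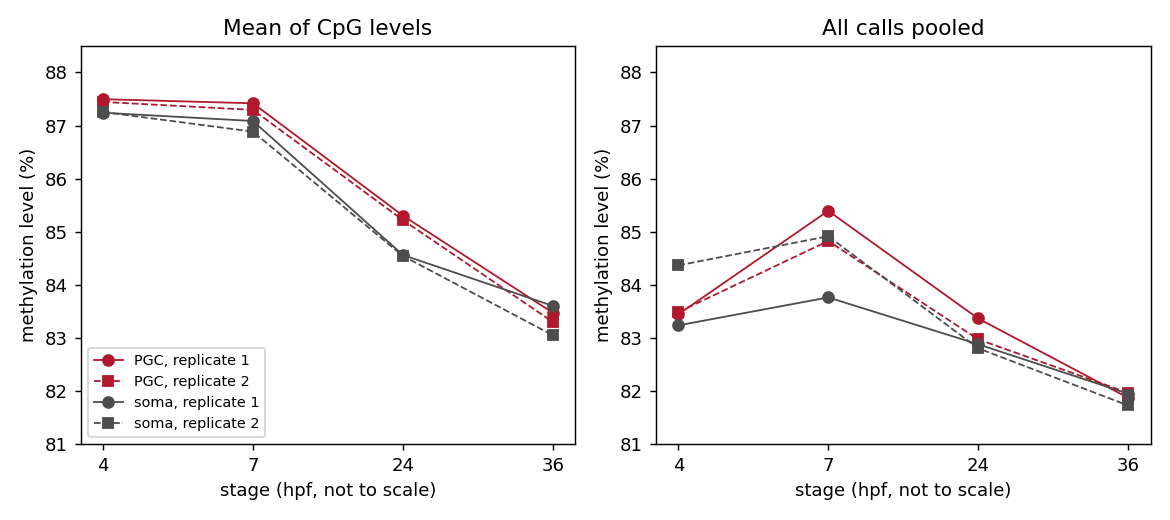
Methylation level (%) of each library against stage (hpf) for PGCs and soma, as the mean of CpG levels (left) and as all calls pooled (right), over the CpGs in both tables; circles and solid lines are replicate 1, squares and dashed lines replicate 2, and the level axis does not start at 0. On the left the PGC level moved from 87.50% and 87.45% at 4 hpf to 87.42% and 87.30% at 7 hpf, whereas on the right it rose by 1.95 and 1.34 points.

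The sign of this small step depended on how CpGs were weighted. When all calls were pooled, the PGC level was 83.4% and 83.5% at 4 hpf and 85.4% and 84.8% at 7 hpf, a rise of 1.95 and 1.34 points (0.527 and 0.547 points in soma). Coverage was spread differently over the genome at the 2 stages. CpG-dense bins, those with over 40 CpGs per kb, took 14.6% and 12.9% of the PGC calls at 4 hpf but 11.3% and 11.1% at 7 hpf, and these bins were less methylated than the rest. Weighting both stages by the coverage of the 4 hpf library gave -0.00441 and -0.129 points, and weighting both by that of the 7 hpf library gave 0.024 and -0.0789 points. With the weights held fixed, the rise of the pooled level was therefore not seen. At the 2063679 CpGs covered by 5 or more calls in every PGC library of the 2 stages, the changes were 0.0206 and -0.0683 points, of opposite sign in the tables.

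Depth differed between the libraries and favoured 7 hpf. In their full tables, the PGC libraries of 4 hpf held 35059364 and 124063021 nuclear calls (mean coverage 3.31 and 6.85), those of 7 hpf 84214952 and 249530686 (mean coverage 7.95 and 13.8). In replicate 1 of 4 hpf, 23.7% of CpGs rested on a single call. Counting error of the pooled level of a library was at most 0.0123 points either side (95% Wilson interval), which does not cover the mean of CpG fractions. Intervals cover counting error only and take calls as independent. Sequenced reads are not independent molecules, and calls at nearby CpGs can share a read, so the intervals are too narrow. In the unmethylated lambda spike-in, 0.367% of calls were read as methylated at 4 hpf and 0.316% at 7 hpf in replicate 1. Subtracting these shares gave -0.0718 points in replicate 1. In replicate 2 it gave -0.702 points, a value resting on only 221 and 131 lambda calls. At the mitochondrial CpGs, the share read as methylated was 0.387% and 0.581% at 4 hpf and 0.426% and 0.415% at 7 hpf, a spread of the same order as the step itself. Subtracting the mitochondrial shares gave -0.0833 and -0.129 points.

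CpG-poor and CpG-dense parts of the PGC genome moved by different amounts. Bins of 1 kb were grouped by the number of CpGs listed in either table. In the 3 to 5 class the level was 91.7% and 91.5% at 4 hpf and 91.4% and 91.2% at 7 hpf, a change of -0.237 and -0.348 points. The loss was smaller in each denser class, at -0.19 and -0.282 points for 6 to 10 CpGs per kb, -0.141 and -0.2 points for 11 to 20, and -0.0124 and -0.0996 points for 21 to 40. In the densest class, over 40 CpGs per kb, the level was 74.6% and 74.5% at 4 hpf and 74.6% at 7 hpf in both replicates, with a gain of 0.076 and 0.0545 points. The sparsest class, 1 to 2 CpGs per kb, held 0.243% of CpGs and changed by -0.117 and -0.465 points. The gap between the densest and the sparsest class closed by 0.193 and 0.52 points, again with every 7 hpf library on one side of every 4 hpf library (exact two-sided permutation p = 0.33). The contrast turned to -0.0908 points when windows of 5 kb replaced those of 1 kb, so its direction held only at the finer scale. From 7 to 24 hpf every density class lost methylation in PGCs, from -0.825 and -0.723 points in the densest to -3.28 and -3.12 points in the sparsest. Soma also differed by density from 4 to 7 hpf, with -0.187 and -0.649 points at 3 to 5 CpGs per kb and 0.0886 and -0.112 points over 40. The pattern was thus not particular to PGCs.

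**Figure D2:**
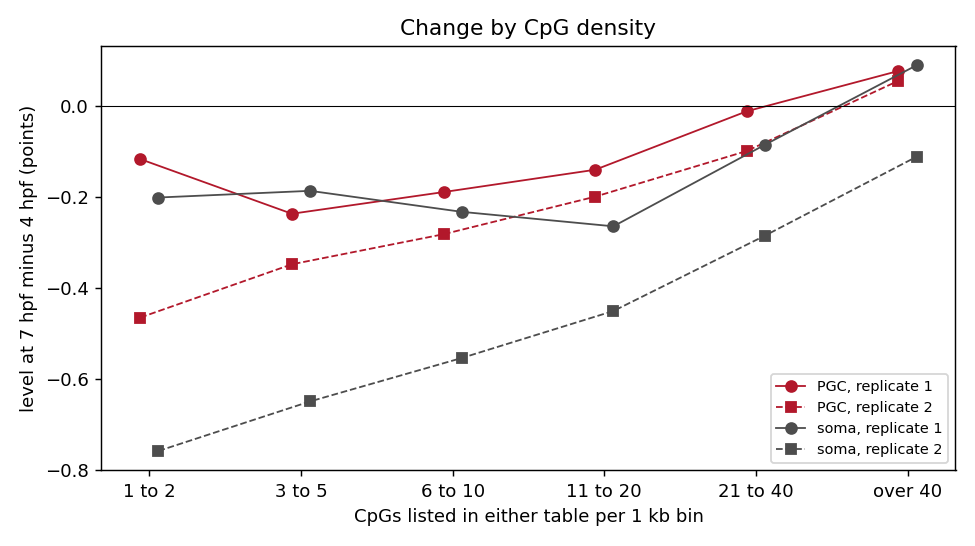
Change of the methylation level from 4 to 7 hpf (percentage points) against CpG density class (CpGs listed in either table per 1 kb bin), 1 point per replicate table for PGCs and soma. In PGCs the change runs from -0.237 and -0.348 points at 3 to 5 CpGs per kb to 0.076 and 0.0545 points over 40 CpGs per kb.

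The largest average shifts were gains at intermediate levels, and they were larger in one table than in the other. Of the 1 kb bins, 505870 held 3 or more CpGs and reached 20 calls in every one of the 4 PGC libraries. Bins were put into classes by their 4 hpf PGC level in the table not measured, because a class set by the same library drifts towards the average at the next stage through counting error. The 4 hpf replicates are called technical, and a deviation that they share is not removed by this choice. Bins at 20 to 50% stood at 34.6% in replicate 1 at 4 hpf and 38.6% at 7 hpf, and at 37.1% and 37.8% in replicate 2. Their gain was thus 3.92 points in replicate 1 (5856 bins) and 0.728 points in replicate 2 (5680 bins). Bins at 5 to 20% gained 2.65 and 0.439 points, and bins at 50 to 80% gained 2.26 and 0.953 points. These 3 intermediate classes gained in both tables, but the shallower table gave the larger value each time. A bin's level pools its calls, the measure that rose when all calls of a library were pooled. Shifts of coverage within bins therefore enter these gains, and their part was not tested.

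At the ends of the scale the PGC values hardly moved. The fully methylated class of 95 to 100%, with 317668 bins in replicate 1 and 319429 in replicate 2, changed by -0.196 and -0.141 points. The unmethylated class, below 5%, changed by 0.349 and -0.0135 points. Between these, bins at 80 to 90% gained 0.606 and 0.498 points and bins at 90 to 95% gained 0.0336 and 0.0799 points. Soma bins of the same classes changed by 1.22 and 1.56 points at 20 to 50% and by -0.214 and -0.451 points at 95 to 100%, so the gain at intermediate levels and the small loss at high ones appeared in both cell types. When the class came from the 4 hpf library of the same table, the mean change was 4.14 points at 20 to 50% and -1.29 points at 95 to 100%. A class from the 24 hpf PGC library of the other table was also used, a choice made after seeing the data that uses neither stage. By it the 5 to 20% class gained 1.96 and 0.246 points, the 20 to 50% class 3.48 and 0.225 points, and the 50 to 80% class 1.04 and 0.208 points. In that 50 to 80% class more bins were lower than higher at 7 hpf in both tables (50.1% and 51.9% lower, 48.3% and 47.8% higher).

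**Figure D3:**
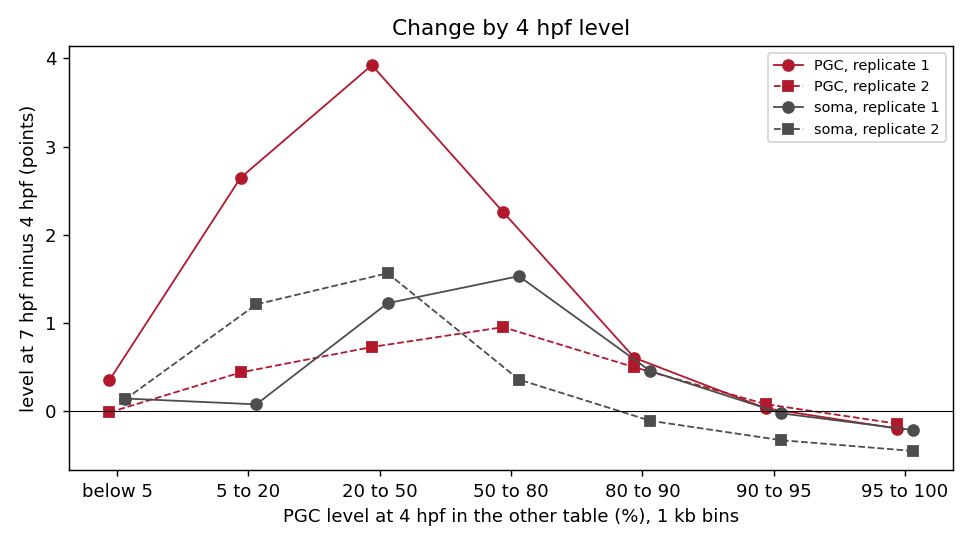
Change from 4 to 7 hpf (percentage points) of 1 kb bins grouped by their PGC level at 4 hpf in the other replicate's table (%), for PGCs and soma in each table. Bins at 20 to 50% show the largest PGC gain in replicate 1, 3.92 points, against 0.728 points in replicate 2, and bins at 95 to 100% lie just below 0 in all 4 series.

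In the 20 to 50% class, the gain differed with density. Bins with over 40 CpGs per kb gained 7.52 points in replicate 1 (304 bins) and 3.43 points in replicate 2 (313 bins). Those with 21 to 40 CpGs per kb gained 4.34 and 1.54 points, whereas those with 6 to 10 changed by 2.78 and -1.06 points. Within the 20 to 50% class, the gain thus carried the same sign in both tables only above 20 CpGs per kb, bins with 11 to 20 having changed by 3.29 and -0.112 points. The other intermediate classes did not share this pattern in full. At 50 to 80%, bins gained in both tables at every density measured, between 1.12 and 4.73 points in replicate 1 and between 0.843 and 1.76 points in replicate 2. At 5 to 20%, bins with 6 to 10 CpGs per kb gained 2.62 and 0.117 points and those with over 40 gained 4.56 and 2.15 points. Bins with 21 to 40 gained 2.50 and 0.584 points, but those with 11 to 20 changed by 2.51 and -0.0261 points, of opposite sign. No test was made over bins, since bins of a library are not replicates. Shifts of coverage within bins enter these gains too, and whether they differ with density was not tested.

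Whether single loci changed was asked bin by bin. edgeR's quasi-likelihood test on methylated and unmethylated counts called 0 of 505870 bins of 1 kb (0% called) at a Benjamini-Hochberg adjusted p under 0.05. An unadjusted p under 0.05 was reached by 21854 bins (4.32%), 12934 of them lower at 7 hpf. limma on arcsine square root levels also called 0 bins, with 26853 (5.31%) at an unadjusted p under 0.05. A stratified test whose error is that of counting only (Cochran-Mantel-Haenszel) called 5263 bins (1.04%, 1518 lower and 3745 higher). An earlier form of the edgeR fit called 273 (0.054%, 63 lower and 210 higher).

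That scatter was as large within a stage as between stages. Beyond counting error, the levels of 1 kb bins differed by a root mean square of 3.25 points between the replicates of 4 hpf and 3.20 points between those of 7 hpf. Counting error was computed with calls as independent, so scatter from calls that share a read remains in these values. Pairs of different stage differed by 4.04 points in replicate 1, 2.45 points in replicate 2, and 3.42 and 3.36 points across the tables. The closest pair of all was thus the 4 and 7 hpf libraries of replicate 2. The difference was concentrated at intermediate levels: in bins at 20 to 50% by their 24 hpf level it lay between 9.98 and 16.8 points over the 6 pairs, against 1.18 to 1.85 points in bins at 95 to 100%.

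Large changes of a bin in one table were mostly absent from the other. In replicate 1, 2285 bins fell by at least 20 points, with a mean change of -29.3 points. In replicate 2 these bins went from 61.6% to 61.4%, a change of -0.242 points, with 51.8% of them lower against 52.3% of all bins. The 765 bins that fell as much in replicate 2 changed by 2.01 points in replicate 1, in the opposite direction. By mean change these falls were thus not seen in the table not used for choosing, whereas rises were seen there in part. The 4184 bins that rose by at least 20 points in replicate 1, by 30.4 points on average, rose by 1.77 points in replicate 2, where 55.3% of them were higher against 46.9% of all bins. The 1099 bins that rose in replicate 2, by 27.3 points, rose by 7.44 points in replicate 1, from 56.1% to 63.5%, with 61.0% of them higher against 44.3% of all bins. At 24 and 36 hpf the PGC libraries of replicate 1 held these bins at 63.8% and 64.1%. Soma gained 5.84 points at the same bins in replicate 1 and 1.90 points at the bins chosen in replicate 1 and measured in replicate 2. The chosen bins averaged between 55.3% and 61.6% at 4 hpf where measured, whereas most bins were near full methylation. Among bins at 50 to 80% by 4 hpf level, 44.6% were lower and 54.8% higher in replicate 1, and 45.5% and 54.2% in replicate 2. Beside such bins the falls recurred more often, and the rises stood out less, than beside all bins. No comparison matched by level was made. Because the 4 hpf replicates are called technical, the table used for choosing and the table measured may not be independent at that stage.

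**Figure D4:**
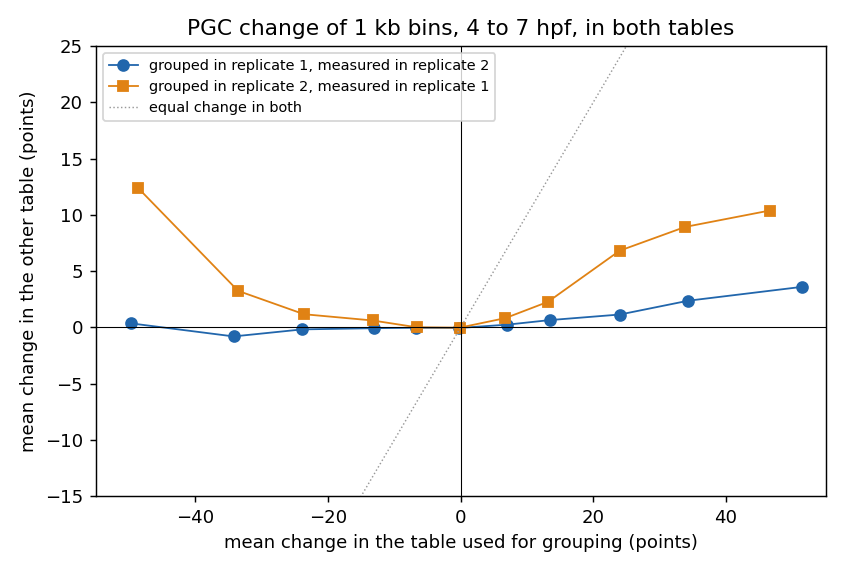
Mean change from 4 to 7 hpf in PGCs (percentage points) of 1 kb bins in the table not used for grouping, against their mean change in the table used, in 11 steps of change; the dotted line marks equal change. Bins that rose lie above 0 and far below the dotted line, up to 10.4 points in replicate 1 and 3.60 points in replicate 2, whereas bins that fell lie near or above 0; the step at -48.6 points holds only 33 bins.

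The 2 tables together held few bins that moved far in the same direction. A fall of at least 20 points in both was found at 111 bins (0.0219% of those tested) and a rise in both at 303 (0.0599%), while 272 bins (0.0538%) moved by as much in opposite directions. At 10 points these numbers were 965 (0.191%) lower, 1662 (0.329%) higher and 2046 (0.404%) opposite, and at 30 points 17 (0.00336%), 60 (0.0119%) and 46 (0.00909%). At each size, bins that rose in both tables outnumbered those that fell in both. Rises also outnumbered falls in each table alone, with 4184 against 2285 bins in replicate 1 and 1099 against 765 in replicate 2 at 20 points. The 4 hpf libraries were the shallower ones (mean coverage 3.31 and 6.85, against 7.95 and 13.8 at 7 hpf), and a bin's level pools its calls. What part either had in the excess of rises was not tested.

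Broad regions behaved more alike in the 2 tables than narrow ones. As a description, the correlation of the PGC change between the tables was 0.0504 over 505870 bins of 1 kb, 0.157 over 131207 of 10 kb, 0.553 over 13411 of 100 kb and 0.764 over 1353 of 1 Mb. The SD of the change fell from 5.80 and 3.73 points at 1 kb (4.16 and 2.81 points from counting) to 1.75 and 1.12 points at 1 Mb (0.281 and 0.183 points from counting). At 1 Mb the PGC change of replicate 1 had a correlation of 0.645 with the soma change of replicate 2, and the PGC change of replicate 2 one of 0.497 with the soma change of replicate 1. The soma changes of the 2 tables had a lower correlation with each other, 0.414. The changes of broad regions were thus correlated across cell types as well, which does not mean that they had the same sign. Bins of one library share its depth and base composition, and no p is given. A bin's level pools its calls, the measure that rose when all calls of a library were pooled. Shifts of coverage within wide bins therefore enter these changes, and their part was not tested.

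When bins were widened to 10 kb, a few passed the test, all of them more methylated at 7 hpf in PGCs. edgeR called 3 of 131207 bins of 10 kb (0.00229%), with 7943 (6.05%) at an unadjusted p under 0.05. Of these 7943, 3015 were lower and 4928 higher at 7 hpf, so rises prevailed among them. At 1 kb, the prevailing direction at an unadjusted p under 0.05 depended on the test. By edgeR 12934 were lower and 8920 higher, and by the Cochran-Mantel-Haenszel test 20508 were lower and 27120 higher. Of 5 kb bins edgeR called 0, with 12680 (5.13%) at an unadjusted p under 0.05. No annotation of the danRer10 assembly was used here, so the genes at these positions are not named. The call was fragile: limma called 0 bins of 10 kb (7983 at an unadjusted p under 0.05, and an adjusted p of 0.762 for each of the 3), edgeR without any 1 of the 4 libraries left none of these 3 with an adjusted p under 0.126, and the fit with a replicate block called 25 (22 higher), these 3 included.

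The first, chr17:48390001-48400000 with 50 CpGs, stood at 59.3% (140 calls) and 65.6% (358 calls) in PGCs at 4 hpf and at 91.9% (198 calls) and 92.4% (445 calls) at 7 hpf. It had gained 32.6 and 26.7 points (edgeR adjusted p = 0.0197), and stood at 58.5% and 73.0% at 24 hpf. Soma at 4 hpf was at 29.0% and 72.7% and at 7 hpf at 92.5% and 84.6%, also higher at 7 hpf in both tables. The second, chr20:34830001-34840000 with 113 CpGs, went from 66.4% and 65.6% in PGCs at 4 hpf to 89.0% and 86.5% at 7 hpf (edgeR adjusted p = 0.0305). Its PGC level had come down to 76.9% and 69.5% at 24 hpf, and soma had gained 21.1 and 8.41 points by 7 hpf. The third, chr17:16700001-16710000 with 96 CpGs, went from 73.4% and 86.0% at 4 hpf to 95.6% and 96.2% at 7 hpf (edgeR adjusted p = 0.0402) and was at 83.4% and 77.3% at 24 hpf. In none of the 3 bins did the interaction of stage and cell type reach an unadjusted edgeR p under 0.106, and soma moved the same way in both tables in all 3. As the bins were called for their change to 7 hpf, lower PGC levels at 24 hpf are in part built in.

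**Figure D5:**
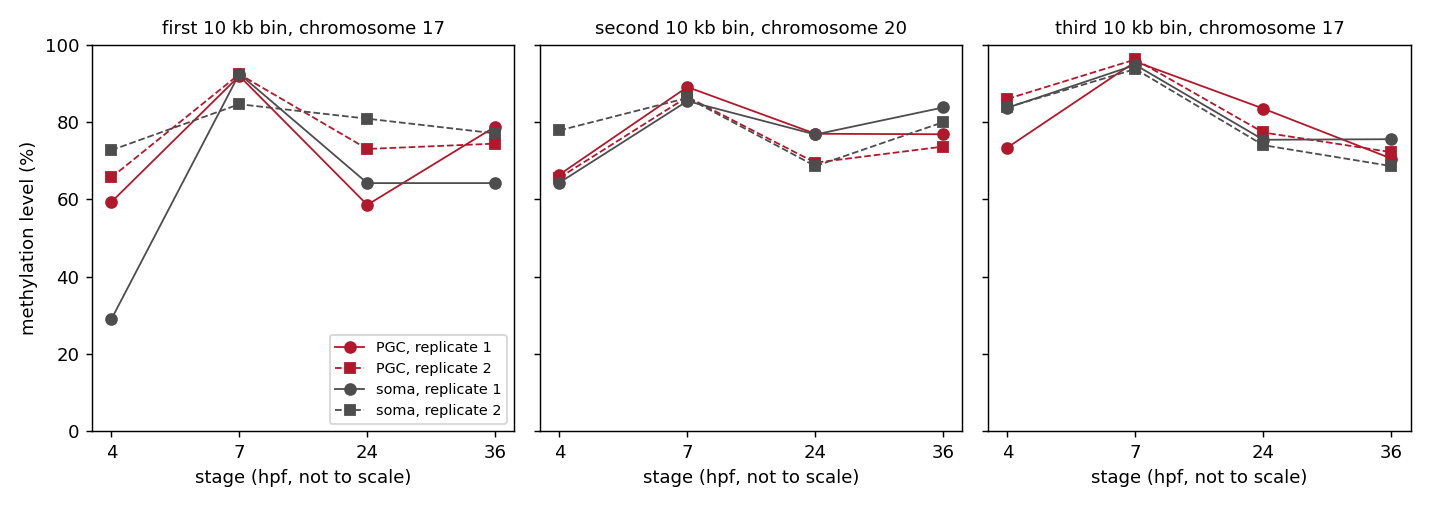
Methylation level (%) of the 3 bins of 10 kb with an adjusted p under 0.05, against stage (hpf), 1 line per replicate of PGCs and soma. In PGCs each bin is highest at 7 hpf in both replicates, at 91.9% and 92.4%, 89.0% and 86.5%, and 95.6% and 96.2%. The bins were called for their change to 7 hpf, so a peak there is in part built in.

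At the scale of 1 kb, the bins with the largest changes of the same sign in both tables were followed across all stages. They came from 353325 bins in which every PGC library of the 2 stages had 30 calls or more over at least 5 CpGs, 174561 of which had the same sign in both tables. As they were chosen by their change, their changes are a description, and each had an edgeR adjusted p of 0.97. By 24 hpf the PGC level had moved back from its 7 hpf value in both tables at 5 of the 10 falls and 7 of the 10 rises. It had done so in 1 table at the other 5 falls and 3 rises. Such a return can follow from the choice of bins alone, and so can a level that stays near its 7 hpf value. Whether either goes beyond that was not tested. The 95% Wilson intervals of the single levels of the first 5 in each direction were between 5.22 and 31.2 points wide. They take the calls of a bin as independent and are therefore too narrow.

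The largest rise was at chr17:48803001-48804000, with 13 CpGs. It stood at 13.9% (36 calls) and 21.9% (32 calls) in PGCs at 4 hpf and at 94.5% (55 calls) and 94.6% (37 calls) at 7 hpf. It then came down to 83.0% and 77.4% at 24 hpf and to 76.5% and 50.7% at 36 hpf, and soma rose with it, by 63.2 and 71.3 points. The next, chr17:48396001-48397000 with 20 CpGs, lies inside the first of the 10 kb bins above. Of that wider bin's 50 CpGs it held 20, and of its 140 and 358 PGC calls at 4 hpf 55 and 132. At 7 hpf it held 55 of 198 and 79 of 445 PGC calls. The gain of the wider bin thus holds both the gain of this 1 kb bin and its smaller share of calls, and their parts were not tested. The PGC level of this 1 kb bin was 20% and 21.2% at 4 hpf and 80% and 88.6% at 7 hpf. It was back at 22.7% and 43.7% at 24 hpf and stood at 52.8% and 60.2% at 36 hpf, so the gain at 7 hpf was not kept in full. Soma gained 91.7 and 43.2 points there.

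At chr9:50317001-50318000, with 14 CpGs, PGCs went from 10.6% and 4.76% to 64.8% and 50.3%. Here the soma replicates disagreed, with a loss of 42.7 points in replicate 1 and a gain of 40.3 points in replicate 2. At chr24:2675001-2676000, with 21 CpGs, PGCs went from 48.5% and 19.8% to 98.0% and 73.4%. At chr10:41209001-41210000, with 18 CpGs, they went from 0% (of 54 calls) and 17.9% to 42.9% and 59.3%. The upper Wilson bound of that 0% was 6.64% with calls as independent, and is higher where calls share reads. In both of these bins soma was lower at 7 hpf in both tables. The other 5 of the 10 rises measured between 38.4 and 48.6 points in replicate 1 and between 39.97 and 41.9 points in replicate 2. Of the 10 rises, all had both 7 hpf libraries above both 4 hpf libraries. That separation is in part built in by the choice of bins, and its share over all bins was not computed. At these rises soma rose in both tables at 5, in 1 table at 1 and in neither at 4.

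The largest fall was at chr5:69024001-69025000, with 17 CpGs. PGCs stood at 71.4% (35 calls) and 93.8% (81 calls) at 4 hpf and at 26.7% (60 calls) and 50% (132 calls) at 7 hpf. At 24 hpf the level was 82.8% and 81.5%, back in the range of 4 hpf, and soma changed by -43.0 and -24.6 points over the same step. At chr7:1152001-1153000, with 23 CpGs, PGCs went from 98.0% and 84.4% to 62.0% and 44.8%, then to 89.0% and 56.5% at 24 hpf. The bin chr6:13892001-13893000, with 14 CpGs, went in PGCs from 72.4% and 52.1% at 4 hpf to 29.8% and 17.4% at 7 hpf. By 24 hpf, with 18.9% and 28.1%, it was still below its 4 hpf level in both tables. Soma stood there at 100% (17 calls) and 16.9% (148 calls) at 4 hpf and changed by -82.2 and 17.7 points. At the bin on chromosome 7 soma changed by -23.1 and 0.101 points, so the soma replicates disagreed in sign at both bins.

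The bin chr10:11174001-11175000, with 20 CpGs and the deepest coverage of the 5, also stayed below its 4 hpf PGC level in both tables. That level was 55.2% (58 calls) and 49.2% (254 calls). By 7 hpf it had fallen to 15.3% (352 calls) and 15.1% (723 calls). Replicate 1 then climbed part of the way back, to 27.8% at 24 hpf and 33.2% by 36 hpf. Replicate 2 read 11.8% and then 19.2%. Whether the lower level goes beyond what the choice of bins gives was not tested. At chr14:35027001-35028000, with 22 CpGs, PGCs went from 78.3% and 80% to 38.7% and 46.5% and stood at 42.4% and 44.9% at 24 hpf. At both bins soma fell in replicate 1 only, by 28.8 and 37.5 points, and rose by 1.20 and 4.57 points in replicate 2. The other 5 of the 10 falls lost between 30.5 and 50.4 points in replicate 1 and between 29.9 and 34.7 points in replicate 2. Soma fell in both tables at 3 of the 10 falls and in 1 table at the other 7. In 8 of the 10 falls both 7 hpf libraries lay below both 4 hpf libraries, which the choice of bins again in part builds in.

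Across all tested bins, no difference between the steps of PGCs and soma passed the test. edgeR's interaction of stage and cell type called 0 of 360091 bins with at least 20 calls in all 8 libraries (0% called), with 13828 (3.84%) at an unadjusted p under 0.05. limma called 0 as well, with 12625 (3.51%) at an unadjusted p under 0.05, and the earlier form of the edgeR fit called 11 (0.00305%).

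Unmethylated bins stayed unmethylated. Bins below 10% made up 5.41% and 5.32% of the tested bins in PGCs at 4 hpf and 5.20% and 5.28% at 7 hpf. The 26901 bins below 10% at 4 hpf in replicate 2 stood in replicate 1 at 1.92% at 4 hpf and 2.44% at 7 hpf, and the 27383 chosen in replicate 1 stood in replicate 2 at 2.56% and 2.58%. Only 21 of the former and 38 of the latter were over 50% methylated at 7 hpf, against 14 and 26 at 4 hpf. Around such bins, taken here as the 32050 below 10% in soma at 4 hpf, the PGC level rose from 69.2% in both replicates at 1 kb distance to 93.0% and 92.9% at 2 to 4 kb, at 4 hpf. The change by 7 hpf was 0.178 and -0.124 points at 1 kb, of opposite sign in the tables, and -0.0993 and -0.156 points at 2 to 4 kb. At 20 kb or more it was -0.102 and -0.158 points, so that the change at 1 kb lay above that of distant bins by 0.28 points in replicate 1 and by 0.0343 points in replicate 2. No test was made of this contrast.

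Calls at the same CpG were slightly more mixed at 7 hpf within each table. For each of the 7648718 CpGs that every PGC library of the 2 stages covered with 2 or more calls, the chance that 2 calls drawn from it differ was computed, a measure whose expectation does not depend on depth. Its average was 7.00% and 7.33% at 4 hpf and 7.27% and 7.53% at 7 hpf, higher by 0.263 and 0.199 points within the tables. The stages overlapped, because replicate 2 at 4 hpf lay above replicate 1 at 7 hpf (exact two-sided permutation p = 0.667). The share of pairs with both calls methylated went from 82.9% and 82.7% to 82.7% and 82.5%. By density, the increase in mixed pairs was 0.379 and 0.434 points at 3 to 5 CpGs per kb and 0.128 and -0.0414 points over 40 CpGs per kb.

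The small net loss was spread over the chromosomes. Of the 25 nuclear chromosomes, 18 were lower at 7 hpf in both tables, 0 were higher in both and 7 had opposite signs. The mean change ran from -0.259 points on chromosome 17 (-0.326 and -0.192 points) to 0.0132 points on chromosome 19 (0.153 and -0.127 points). All 7 chromosomes of mixed sign were higher in replicate 1 and lower in replicate 2. In replicate 2 every chromosome was lower at 7 hpf, with changes from -0.23 to -0.0479 points.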

How the data were processed

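The series holds 16 WGBS libraries, 2 for each of 2 sorted cell types (PGCs, soma) at each of 4 stages. Per the study's methods and the labels, the authors trimmed reads with fastp 0.12.5, mapped them with WALT to danRer10 with lambda added, removed duplicates with Picard 2.3.0 and called CpGs with MethylDackel, merging strands and leaving out likely variants. The deposited values are raw counts of methylated calls and of all calls per CpG, 1 table per replicate number. Each table lists only CpGs called in all 8 of its libraries, so its CpG set depends on its shallowest library. Positions were taken to count from 0 and are printed from 1.

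The level was the mean of CpG fractions over the nuclear CpGs in both tables, and a bin's level its methylated over all calls. Stages were compared by exact two-sided permutation of library labels, and bins with edgeR 4.0.16 (common dispersion from evenly spaced bins, default quasi-likelihood fit), with limma 3.58.1 and the Cochran-Mantel-Haenszel test as alternatives (R 4.3.3, Python 3.11.15, numpy 2.4.6, scipy 1.17.1). The form of the edgeR fit was not set in advance: the earlier form was run first and called 273 bins, and the package default was made the main one after both outcomes had been seen. The tests were also run on simulated counts with planted falls far larger than the average shifts found here. That run does not bear on small changes. Tested bins held 3 or more CpGs and reached 20 calls in every library compared. Named bins were the 10 falls and 10 rises with the largest smaller-of-the-2 changes, with at least 5 CpGs and 30 calls per library, the first 5 of each in full. The compared libraries and classes were chosen with earlier results of these data known. Alternatives covered weighting, CpG sets, conversion, call minimums, bin sizes, class setting, tests, pairing and left-out libraries. No annotation of danRer10 was used, so no genes are named and no sequence is shown.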

Additional observations from a re-analysis of the deposited data

Results flagged for a closer look

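At 4 of the 20 named bins of 1 kb, both PGC replicates rose from 4 to 7 hpf while both soma replicates fell. The bins were chosen for their PGC change and then kept only where soma moved the other way in both tables. A large gap from soma is therefore built in. The mean PGC change minus the mean soma change was 86.6 points at chr10:41209001-41210000, where soma stood at 94.4% (18 calls) and 10% (40 calls) at 4 hpf and at 15.5% and 0% at 7 hpf. It was 78.6 points at chr24:2675001-2676000, where soma went from 97.6% and 65.7% to 50% and 59.2%. It was 69.9 points at chr6:41556001-41557000, where PGCs went from 32.2% and 24.3% to 80.8% and 64.7% and soma from 55.4% and 72.7% to 32.7% and 44.4%. It was 52.2 points at chr14:24447001-24448000, where PGCs went from 24.0% and 27.7% to 64.3% and 67.9% and soma from 44.4% and 47.5% to 31.7% and 36.5%. The edgeR interaction of stage and cell type had an unadjusted p of 0.000864 at the bin on chromosome 24 and 2.69e-05 at that on chromosome 6, with an adjusted p of 1 at both. As these bins were picked for opposite steps in the same libraries, their unadjusted p-values are a description and lend no support to a difference. At the bins on chromosomes 10 and 14, with 18 calls in soma replicate 1 at 4 hpf, the difference was not tested. By 24 hpf the PGC and soma levels of the bin on chromosome 6 overlapped, at 14.9% and 50% against 47.3% and 68.1%.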

How the results depend on the processing

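The PGC level change of -0.114 points turned to 1.64 points with pooled calls and to 1.54 points with pooled calls without high-copy CpGs, the latter chosen after seeing the data, and ranged from -0.176 to -0.0518 points with 1 library left out. The step of PGCs minus soma ranged from 0.0776 to 0.221 points without either replicate, the density contrast from 0.193 to 0.52 points (-0.0908 with 5 kb windows), two-call discordance from 0.199 to 0.263 points, and the share of unmethylated bins from -0.209 to -0.0391 points. The 20 to 50% class ranged from 0.728 to 3.92 points, and the class below 5% from -0.0135 points with replicate 1 left out to 0.349 points with replicate 2 left out. The 90 to 95% class was -0.0438 points by 24 hpf level. Held-out bins that fell averaged 0.886 points, from -0.242 without replicate 1 to 2.01 points without replicate 2, and those that rose 4.61 points, from 1.77 to 7.44 points. The change 1 kb from unmethylated bins minus that at 20 kb or more was 0.157 points, 0.0343 to 0.28 points with 1 replicate left out, and 1.30 points with pooled calls. Of 1 kb bins, 0 were called without any 1 library, as for the interaction with cell type. The Cochran-Mantel-Haenszel test called 5263, the earlier edgeR fit 273 (11 for the interaction), and 10 kb bins 3. For 10 kb bins, alternatives chosen after seeing the data gave 0 (limma), 8 (earlier edgeR fit) and 0 to 1 without 1 library. The cause of these differences was not tested. Over all alternatives, 133 values kept direction and side of the threshold or moved by less than their spread, 14 moved by more (13 of them level classes), 6 reversed, and of the counts of called bins 6 went up and 5 went down beyond 1.5 times. For values with no test, those with 1 replicate left out set that spread, so they could not count as moved. The 20 to 50% class was entered more than once for each setting, so the tally is not one of separate results. No exact p here could pass 0.05, so values with such a p counted as kept by their direction alone. Values kept by direction alone included the step of PGCs minus soma, from 0.149 to 1.11 points with pooled calls, and the density contrast, from 0.357 to 1.46 points. Replicate numbers did not pair the samples by their labels, and deviations of same-numbered libraries had a correlation of 0.0141. With a replicate block 0 bins of 1 kb were called and 25 of 10 kb (0.0191%). With that block the level change of -0.114 points had an exact permutation p of 0.5, the smallest possible. With 40 calls or more in each library, 0 of 254067 bins of 1 kb were called.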
